A study of Mus musculus with 8 samples.

Results

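The genes described here are 3 metallothioneins (Mt1, Mt2, Mt3), the zinc-sensing transcription factor gene Mtf1, the zinc exporter gene Slc30a1 and the zinc importer genes Slc39a1, Slc39a6 and Slc39a10. These 8 symbols were chosen from results of the wild-type against Neat1 null comparison that were already known, so what follows for them is a description of their values and not a test. All 8 were present among the 23420 gene symbols of each library, and all 8 were among the 13316 genes with enough counts to be tested.

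RNA-seq was done on total RNA of mouse embryonic fibroblasts (MEFs) of C57BL6/N strain background that expressed the adenoviral oncoprotein E1A together with an activated Ras, HRasV12. Of the 8 libraries, 4 were from wild-type cells and 4 from Neat1 null cells. Both groups carried E1A and HRasV12 and were grown in DMEM with 10% FCS, and neither was given another treatment per the labels. Neat1 is a long noncoding RNA that builds paraspeckles, which are nuclear bodies; no label names the allele that removes it, or says that libraries of 1 genotype were taken from different embryos or cultures. The p-values below therefore measure the spread between the libraries at hand. That spread is beyond counting noise, since any pair of libraries of 1 genotype had a ratio of chi-square to its degrees of freedom of 59.3 or more, and the Neat1 null libraries are from more than 1 embryo, since 3 were male and 1 female by Xist and Y-linked genes.

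Metallothioneins are small, cysteine-rich proteins that bind zinc and copper and buffer them in the cell. When free zinc rises, the protein MTF1 binds short metal response elements near the start of Mt1, Mt2 and Slc30a1 and activates them, and it is known to repress Slc39a10. ZnT proteins (the Slc30a family) move zinc out of the cytosol, and ZIP proteins (the Slc39a family) move it in. Mt1 and Mt2 are also induced by glucocorticoids and copper, and Mt3 is mainly a brain gene.

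The stretches below are shown because they hold the sequence through which Mt1, Mt2 and Slc30a1 are known to be regulated. They come from RefSeq promoter windows on GRCm38.p6, each reaching from 250 bases before to 50 bases after a gene's start, and are written 5′ to 3′ on the gene's own strand. Capitals mark the metal response element core, searched as TGCACNC or TGCGCNC on both strands. The core lies on the opposite strand in the third capital run of the Mt2 upstream stretch, in the Mt2 core at 5 and in both Slc30a1 cores. Positions count from the start base used for the window as 1, with bases before it negative. A gene can have other start sites, and sequence outside the windows was not searched. The Mt1 window ends at 94179138 and the gene at 94180327, so its count and positions hold for this window only. Where the main Mt1 transcript, of 549 bases, starts within the gene was not located. The Mt1 cores may therefore lie otherwise to that start, and the Mt1 and Mt2 counts may not cover like parts of their promoters.
Mt2 upstream of its start, chr8:94172368-94172617, plus strand: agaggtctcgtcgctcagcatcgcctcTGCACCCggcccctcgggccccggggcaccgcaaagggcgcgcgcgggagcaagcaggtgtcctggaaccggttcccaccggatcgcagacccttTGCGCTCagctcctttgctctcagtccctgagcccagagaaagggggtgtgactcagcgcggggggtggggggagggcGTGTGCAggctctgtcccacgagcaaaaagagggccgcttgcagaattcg
Mt2 core at 5, chr8:94172611-94172640, plus strand: gaattcgggtcGTGCGCAggcccaggggcg
Mt1 core at -23, chr8:94179055-94179084, plus strand: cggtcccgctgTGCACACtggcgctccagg
Mt1 core at 3, chr8:94179080-94179109, plus strand: ccagggagctcTGCACTCcgcccgaaaagt
Mt1 core at 21, chr8:94179098-94179127, plus strand: cgcccgaaaagTGCGCTCggctctgccaag
Slc30a1 core at -43, chr1:191906727-191906756, plus strand: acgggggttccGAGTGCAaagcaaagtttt
Slc30a1 core at 31, chr1:191906800-191906829, plus strand: gcctccgggccGAGCGCAgtcgccgcggac

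The Mt2 window held 4 cores, at -223, -128, -50 and 5, the Mt1 window 3 and the Slc30a1 window 2. Mt3 held 1 core, at 28, and Mt4, the metallothionein gene of stratified epithelia, held 1 at -91. No core of these letters was in the windows of Mtf1 or Slc39a1, or in either of the 2 windows of Slc39a10. Those of Slc39a10, chr1:46925727-46926026 and chr1:46853569-46853868, do not hold the GENCODE start of this minus-strand gene, at 46892852. The sequence around that start was not searched, and Slc39a6 had no window. Of all 32851 windows of the same length, 25.7% held at least 1 core, 7.11% at least 2, 1.97% at least 3 and 0.517% at least 4. With the looser core TGCNCNC, which includes both patterns, there were 6 matches in the Mt2 window, 5 in that of Mt4, 3 each in those of Mt1 and Mt3, 2 in that of Slc30a1, 1 each in those of Mtf1, Slc39a1 and 1 Slc39a10 window, and 0 in the other Slc39a10 window. Of all windows 51.0% held at least 1 such match, 20.2% at least 2, 7.1% at least 3, 2.3% at least 4 and 0.697% at least 5. A match is a description of the letters in the window and not of binding, which was not measured.

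The 4 metallothionein genes stand side by side on the plus strand of chromosome 8 (GRCm38, GENCODE M21), over 43131 bases from 94137197 to 94180327. Mt2 lies at 94172664 to 94173568 and Mt1 at 94179082 to 94180327, 5513 bases apart, with Mt3 at 94152607 to 94154146. Mtf1 is on chromosome 4 (124802104 to 124849800, plus strand), Slc30a1 on chromosome 1 (191906767 to 191913247, plus strand) and Slc39a1 on chromosome 3 (90248172 to 90253612, plus strand). Slc39a10 is on the minus strand of chromosome 1 (46807544 to 46892852) and Slc39a6 on the minus strand of chromosome 18 (24579881 to 24603817).

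Levels are CPM, which are counts scaled to libraries of 1e6 with a correction for library composition, and a log2 fold change is Neat1 null minus wild-type with its standard error (SE). Mt1 was at 20.4, 98.9, 39.3 and 35.7 CPM in wild-type libraries 1 to 4 and at 106, 155, 601 and 230 CPM in Neat1 null libraries 1 to 4. Every Neat1 null library was above every wild-type library, and the gap between the groups, from wild-type 2 to Neat1 null 1, was small beside the spread among the Neat1 null libraries. The means were 48.6 ± 34.5 and 273 ± 224 CPM (SD, n = 4 each), a log2 fold change of 2.49 (SE 0.59). Without Neat1 null library 3, the highest one, it was 1.77, and without wild-type library 2 it was 3.11.

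Mt2 encodes the second general metallothionein and was at 10.7, 37.4, 20.5 and 17.0 CPM in wild-type libraries 1 to 4 and at 79.0, 88.1, 203 and 127 CPM in Neat1 null libraries 1 to 4. The groups again did not overlap, and the ranking of the libraries within each group was the same as for Mt1, with wild-type 2 and Neat1 null 3 at the top and library 1 of each group at the bottom. The means were 21.4 ± 11.4 and 124 ± 56.6 CPM (SD, n = 4 each), a log2 fold change of 2.54 (SE 0.45). Leaving out any 1 library gave 2.21 to 2.96. The annotation places an antisense transcript, Gm45774, over 73.5% of the Mt2 exon length on the opposite strand; the kit was stranded, but no source used here gives the strand setting of the counting.

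The proportion of Mt1 to Mt2 did not separate the genotypes, while their sum did. Together they took 31.0 to 136 CPM in wild-type and 185 to 804 CPM in Neat1 null libraries. The share of Mt1 in the Mt1 and Mt2 counts was 65.6%, 72.6%, 65.7% and 67.8% in wild-type libraries 1 to 4 and 57.4%, 63.8%, 74.7% and 64.5% in Neat1 null libraries 1 to 4. The group means of the share, 67.9% ± 3.26 and 65.1% ± 7.16 (SD, n = 4 each), differed by less than the spread between libraries. The lowest and the highest share were both in Neat1 null libraries, 57.4% in library 1 (Wilson 95% confidence interval 55.3% to 59.5%) and 74.7% in library 3 (74.1% to 75.3%); these intervals cover counting error only. The main transcripts of Mt1 and Mt2 share no run of identical bases longer than 20.

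Mt3 did not move with them. It was at 0.106, 0.221, 1.56 and 1.41 CPM in wild-type libraries 1 to 4 and at 0.719, 0.293, 1.02 and 0.220 CPM in Neat1 null libraries 1 to 4, on 4 to 67 reads per library. The 2 groups overlapped over nearly their whole range, and the log2 fold change was -0.57 (SE 0.82). Within the wild-type group alone the reads ran from 4 to 67, so the libraries of 1 genotype differed by more than the genotype means did. Mt4 had 0, 1, 6 and 1 reads in the wild-type libraries and 0 in each Neat1 null library, too few to be tested.

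**Figure D1:**
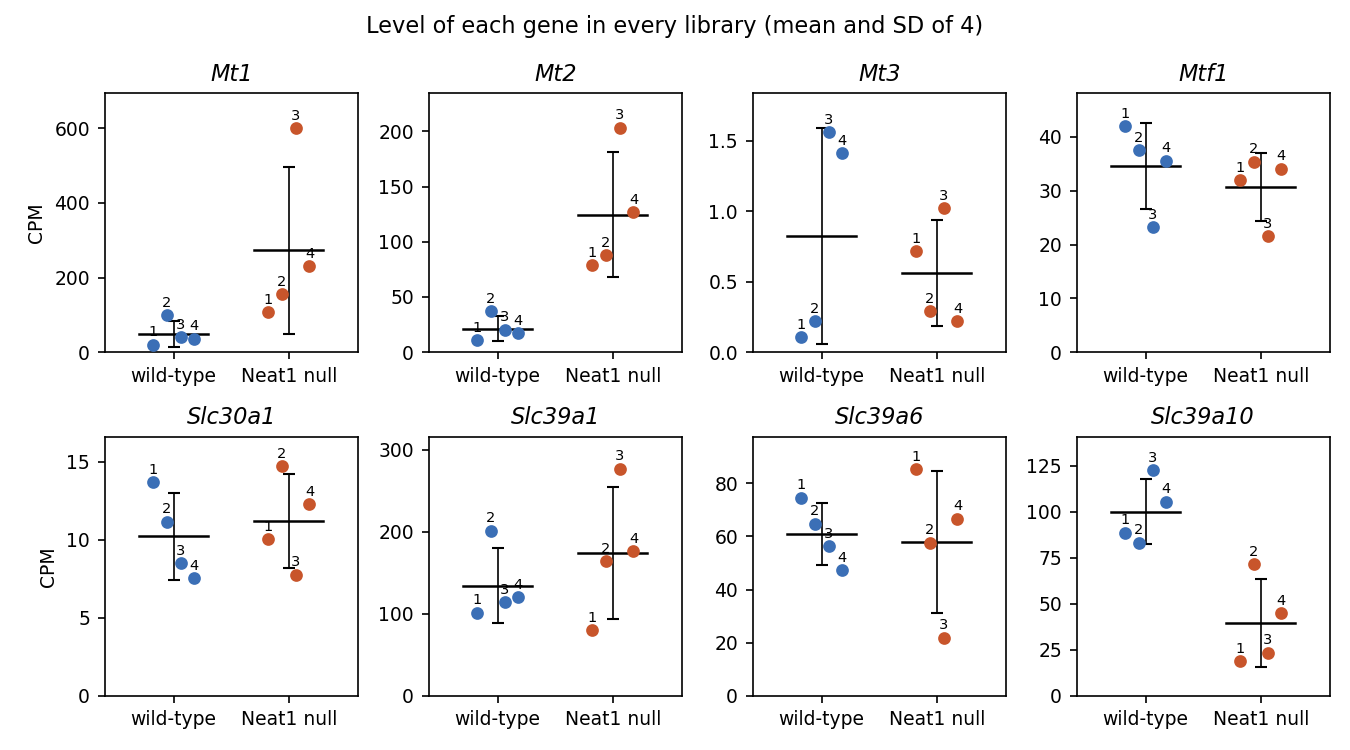
Level of each of the 8 genes in every library, in CPM on a linear axis that starts at 0 and differs between panels; points are libraries with their replicate number, and the line and bar give the mean and SD of 4. Mt1, Mt2 and Slc39a10 have no overlap between the groups, and Neat1 null library 3 is the highest point for Mt1 and Mt2.

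Mtf1 encodes the factor that senses zinc and activates Mt1, Mt2 and Slc30a1. It was at 42.0, 37.6, 23.3 and 35.6 CPM in wild-type libraries 1 to 4 and at 32.0, 35.4, 21.6 and 34.1 CPM in Neat1 null libraries 1 to 4. The groups overlapped, and library 3 was the lowest of each group, including Neat1 null library 3, in which Mt1 and Mt2 were highest. The log2 fold change was -0.17 (SE 0.33). The amount and zinc loading of the MTF1 protein were not measured.

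Slc30a1 encodes ZnT1, the zinc exporter of the plasma membrane and a known MTF1 target. It was at 13.7, 11.2, 8.48 and 7.55 CPM in wild-type libraries 1 to 4 and at 10.1, 14.7, 7.76 and 12.3 CPM in Neat1 null libraries 1 to 4. All but 1 of the Neat1 null values lay within the wild-type range, and the log2 fold change was 0.13 (SE 0.38). Its Neat1 null libraries ranked as those of Mtf1 did (2, 4, 1, 3), not as those of Mt1 and Mt2 (3, 4, 2, 1). Of the 8 genes, those with a core in a searched window were Mt1 and Mt2, whose groups did not overlap, and Slc30a1 and Mt3, whose groups did. Over all genes tested, 22.6% had groups that did not overlap. As the 8 genes were chosen from this comparison, nothing about the element is read from this.

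The importers differed from each other. Slc39a10, which encodes ZIP10 of the plasma membrane, was at 88.6, 83.3, 123 and 106 CPM in wild-type libraries 1 to 4 and at 18.6, 71.4, 23.4 and 44.8 CPM in Neat1 null libraries 1 to 4. Every Neat1 null library was below every wild-type library, with Neat1 null 2 closest to the wild-type range and 1 and 3 farthest from it. The means were 100.02 ± 17.8 and 39.6 ± 24.1 CPM (SD, n = 4 each), 2.52-fold lower in the fit, with a log2 fold change of -1.34 (SE 0.42). Leaving out any 1 library gave -1.77 to -1.10.

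Slc39a6 encodes ZIP6, the closest relative of ZIP10, with which it forms a complex. It was at 74.5, 64.8, 56.4 and 47.2 CPM in wild-type libraries 1 to 4 and at 85.4, 57.6, 21.8 and 66.6 CPM in Neat1 null libraries 1 to 4. The Neat1 null libraries held both the highest and the lowest value, and the log2 fold change was -0.07 (SE 0.39). The CPM ratio of Slc39a10 to Slc39a6 ranged over 1.19 to 2.24 in wild-type and 0.218 to 1.24 in Neat1 null libraries, so the ranges of the ratio overlapped slightly although those of Slc39a10 itself did not.

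Slc39a1 encodes ZIP1, a widely expressed zinc importer. It was at 101, 201, 114 and 120 CPM in wild-type libraries 1 to 4 and at 80.1, 164, 277 and 176 CPM in Neat1 null libraries 1 to 4. The groups overlapped, wild-type 2 and Neat1 null 3 were the highest of their groups as for Mt1 and Mt2, and the log2 fold change was 0.38 (SE 0.41). The summed CPM of the 3 importers ranged over 264 to 349 in wild-type and 184 to 322 in Neat1 null libraries, and these ranges overlapped.

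Of the 8 genes, 3 passed an adjusted p of 0.05 (edgeR's quasi-likelihood F test, Benjamini-Hochberg over all genes tested), against 17.7% of all genes tested. Those higher in Neat1 null were 2 (9.97% of all genes) and 1 was lower (7.72% of all genes), and 3 of 8 had groups that did not overlap (22.6% of all genes). Since the 8 were chosen from this comparison, nothing is read from these counts. Their median log2 fold change was 0.03, beside -0.06 over all genes tested.

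Gene length moved with the genotype across all genes, and the values it touches are given here. Over all genes tested, the median log2 fold change went from 0.88 in the shortest of 10 equal classes by exon length to -0.69 in the longest. Of 1322 genes in the shortest class, 400 passed the threshold as higher and 14 as lower. Of 1322 in the longest class, 8 passed as higher and 274 as lower. Mt1, Mt2 and Mt3 were in the shortest class, Slc39a10 was in a class with a median of -0.20, and Mtf1 was in one with a median of -0.44. After a correction for length and GC content in each library, the log2 fold change was 1.74 for Mt1, 1.57 for Mt2 and -0.95 for Slc39a10. The corrected values were -1.63 for Mt3, 0.30 for Mtf1, 0.43 for Slc30a1, -0.03 for Slc39a1 and 0.03 for Slc39a6, so Mtf1, Slc39a1 and Slc39a6 changed sign, all within their SE of 0 before it. Of the Neat1 null libraries, 1 and 3 had the lowest levels of long genes relative to short ones and lay farthest from wild-type on the first principal component (52.5% of variance). Without both of them, an alternative chosen after seeing the data, Mt1 was at 1.97, Mt2 at 2.31 and Slc39a10 at -0.79.

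**Figure D2:**
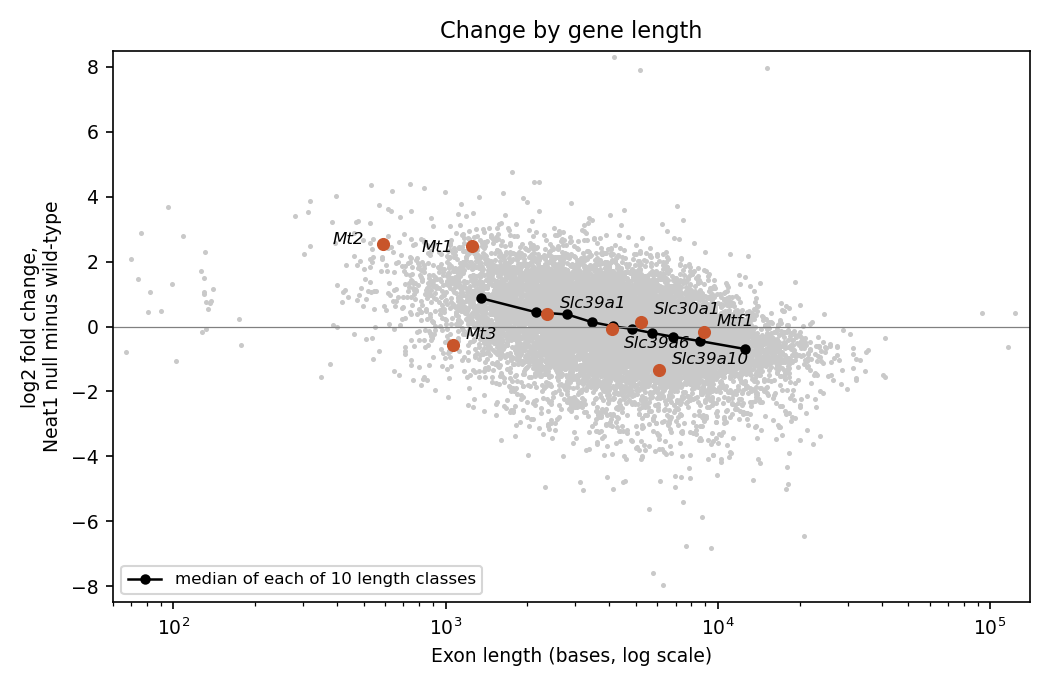
Log2 fold change of all genes tested (grey) against exon length in bases on a log scale, with the median of each of 10 classes of genes by length (black line) and the 8 genes (orange). Mt1 and Mt2 lie above the median of the shortest class (0.88) and Mt3 below it, while Slc39a10 lies below the median of its own class.

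**Figure D3:**
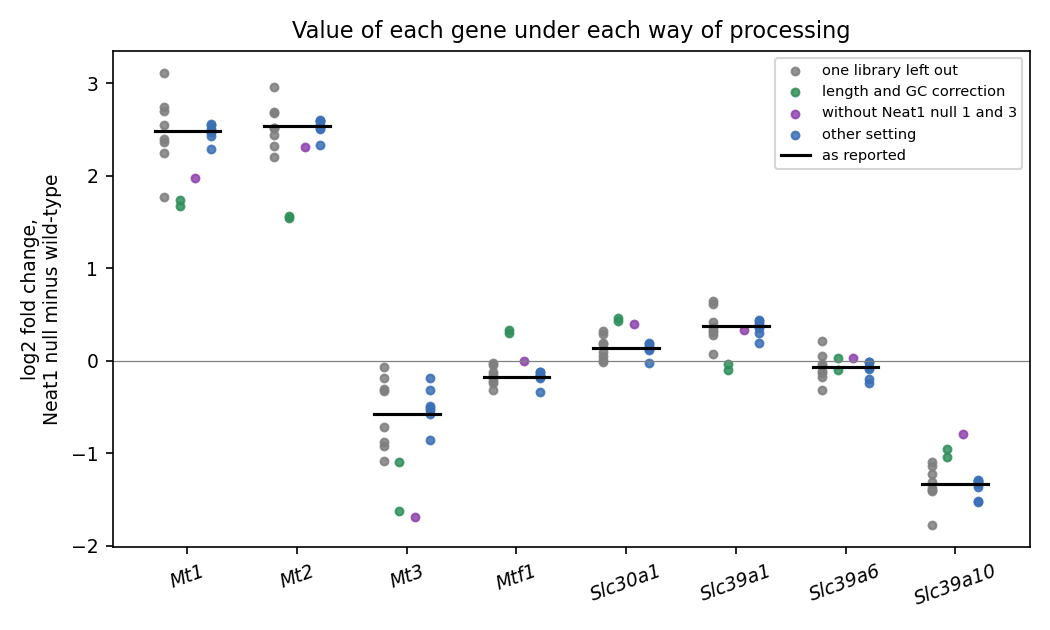
Log2 fold change of each of the 8 genes as reported (black line) and under each alternative: single libraries left out (grey), length and GC correction (green), Neat1 null libraries 1 and 3 both left out (purple) and other settings (blue). Mt1 and Mt2 stay above 0 and Slc39a10 below 0 at every point drawn; the lowest Mt2 values, 1.54 and 1.57, are the length corrected ones.

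The libraries themselves were as follows. Counts in genes were 31651625 to 37069334 per wild-type library and 19651035 to 38950207 per Neat1 null library. Neat1 checked the labels: it was at 138, 588, 753 and 1320 CPM in wild-type libraries 1 to 4 and at 6.12 to 11.3 CPM in the Neat1 null libraries (log2 fold change -6.44, SE 0.66, edgeR adjusted p 0.000761). By Xist and Y-linked genes the 4 wild-type libraries and Neat1 null library 3 were female and the other 3 were male, so sex and genotype moved together; the female Neat1 null library had the highest Mt1 and Mt2. Ribosomal protein genes took 6.0% to 7.06% of counts in wild-type and 25.5%, 9.23%, 15.1% and 8.44% in Neat1 null libraries 1 to 4. Rn45s, the ribosomal RNA precursor, took 5.23% of counts in Neat1 null library 1, the one with the fewest counts, and 0.138% to 0.939% in the other libraries. Of the fibroblast markers, Vim was high (1860 and 2415 CPM in wild-type and Neat1 null) and makes up most of their sum. Pdgfra fell without overlap, from 90.0 ± 57.0 to 7.50 ± 2.91 CPM (log2 fold change -3.59, SE 0.51, edgeR adjusted p 0.00806), though not past the threshold without Neat1 null 3 (edgeR adjusted p 0.0646). Pdgfrb (33.0 and 21.7 CPM) and Fbn1 (28.2 and 38.3 CPM) were present in both groups with overlap and did not pass (edgeR adjusted p 0.197 and 0.448). Col1a2 (21.8 and 3.50 CPM), Thy1 (5.27 and 4.53 CPM) and Col3a1 (3.22 and 2.85 CPM) also overlapped and did not pass. Col1a1 (5.47 and 2.50 CPM) was low, Dcn (0.301 and 0.325 CPM) was near 0, and Lum had 2 reads in all wild-type libraries and 0 in Neat1 null. The summed fibroblast markers ran from 1336 to 2527 and from 1974 to 3319 CPM, with 9 of 10 tested. Sums for other cell types were 199 to 683 and 271 to 3292 CPM for epithelial markers (5 of 6 tested, mostly Krt18), 9.36 to 102 and 4.13 to 18.7 CPM for macrophage (1 of 6, Cd68, with Ptprc at 0), and 4.97 to 44.3 and 0.359 to 2.60 CPM for endothelial (2 of 5). They were 2.01 to 13.6 and 0.269 to 1.67 CPM for glial and neuronal markers (2 of 7, Aqp4 at 0), and 2.94 to 15.3 and 2.64 to 14.9 CPM for muscle (1 of 4, Myod1 at 0). The highest endothelial sum was mostly Emcn, not tested, at 16.7 and 39.7 CPM in wild-type 1 and 3 and 0 or 1 reads in each other library. Cd68 and Syt1 passed as lower (log2 fold change -2.47 and -3.31, edgeR adjusted p 0.0239 and 0.0180), Cd68 with overlapping groups. Without both Neat1 null 1 and 3 neither passed (edgeR adjusted p 0.159 and 0.144). Pdgfra (edgeR adjusted p 0.144) and Neat1 (0.0899, log2 fold change -6.34) did not pass in that run either. In bulk RNA, fewer cells of a type and less RNA per cell cannot be told apart, and the part of sex, ribosomal share and these markers in the results was not tested.

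Per length of exon, the order of the levels differed between the genotypes. In wild-type cells Slc39a1 was the highest at 56.7 ± 19.2 CPM per kb, followed by Mt1 at 39.0 ± 27.7, Mt2 at 36.4 ± 19.4, Slc39a10 at 16.4 ± 2.92 and Slc39a6 at 14.9 ± 2.86 CPM per kb. Mtf1 (3.89 ± 0.902), Slc30a1 (1.95 ± 0.530) and Mt3 (0.774 ± 0.720 CPM per kb) followed. Of neighbours in this order, Slc39a6 and Mtf1 did not overlap; all other neighbours overlapped between libraries. In Neat1 null cells Mt1 (219 ± 180 CPM per kb) and Mt2 (211 ± 96.2) came first and overlapped each other. Slc39a1 (73.7 ± 34.1 CPM per kb), the next gene, overlapped Mt1 but not Mt2, and itself stood clear of Slc39a6. Slc39a6 (14.2 ± 6.55), Slc39a10 (6.49 ± 3.95), Mtf1 (3.45 ± 0.707) and Slc30a1 (2.14 ± 0.570 CPM per kb) followed, each overlapping the one before it. Mt3 was last at 0.529 ± 0.354 CPM per kb and did not overlap Slc30a1. The order of the first wild-type genes depends on the Mt1 model: over its main transcript of 549 bases in place of all 1246 exon bases, Mt1 was at 88.5 ± 62.9 CPM per kb and came before Slc39a1.

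The 8 genes also differed in how much they varied between libraries of 1 genotype. The SD of log2 CPM within groups was 1.01 for Mt1 and 1.35 for Mt3, above those of 88.4% and 96.2% of all genes tested. It was 0.35 for Mtf1 and 0.39 for Slc30a1, above those of 11.4% and 16.0% of genes, while Mt2 (0.68), Slc39a10 (0.65), Slc39a6 (0.64) and Slc39a1 (0.61) were near the median of all genes, 0.59.

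With each group's mean removed, the log2 CPM of Mt1 and Mt2 over the 8 libraries had a Pearson r of 0.98. These correlations are descriptions over 8 libraries that share depth and composition, without a p. Among the 11797 genes whose log2 CPM averaged at least 1, Mt1 was the gene most like Mt2, and those next were Acad10 (r = 0.97), Lrrc8e (0.97), Ppm1m (0.96) and 4930404N11Rik (0.96). The genes most like Mt1 were Mfsd12 (0.99), Mettl21a (0.98), Slc37a4 (0.98), Sbk1 (0.98) and then Mt2. Of the other zinc genes described, Slc39a1 was the most like Mt1 (r = 0.92) and Mtf1 the most like Slc30a1 (0.75), whereas Mt1 and Mtf1 had an r of -0.47. With the group means kept, Mt2 was the first match of Mt1, followed by Bin3, Atp6v0d1, Smox and Dctn2, and Mt1 was the next match of Mt2 after Dusp3, followed by Anxa2, Ptrf and 2700094K13Rik.

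Of the other 20 ZnT and ZIP genes, 13 were tested. Past the threshold 1 was higher and 2 were lower, beside 9.97% and 7.72% of all genes tested. The median log2 fold change of the 13 was 0.19, beside -0.06 over all genes. Slc39a7 encodes ZIP7, which releases zinc from the endoplasmic reticulum, and was at 178, 177, 152 and 143 CPM in wild-type libraries 1 to 4 and at 669, 209, 564 and 287 CPM in Neat1 null libraries 1 to 4. It rose without overlap between the groups, most in Neat1 null libraries 1 and 3 (log2 fold change 1.41, SE 0.41, edgeR adjusted p 0.0329); the gene model Gm20427 lies on the same strand over 80.7% of its exon length, so its reads are uncertain.

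Slc39a8 encodes ZIP8, an importer of zinc and manganese, and was at 12.2, 20.3, 25.8 and 21.7 CPM in wild-type libraries 1 to 4 and at 3.32, 10.7, 3.85 and 7.75 CPM in Neat1 null libraries 1 to 4. It fell without overlap (log2 fold change -1.63, SE 0.44, edgeR adjusted p 0.0253). Slc30a3 encodes ZnT3, which loads zinc into synaptic vesicles, and was at 0.769, 4.57, 6.71 and 13.2 CPM in wild-type and 1.35, 0.997, 1.55 and 0.502 CPM in Neat1 null libraries 1 to 4. It fell (log2 fold change -2.53, SE 0.71, edgeR adjusted p 0.0283), but wild-type library 1 lay inside the Neat1 null range.

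The 2 most abundant transporters that did not pass were Slc30a4, which loads zinc into vesicles, and Slc30a5, a transporter of the secretory pathway. Their log2 fold changes were -0.65 (SE 0.38, edgeR adjusted p 0.229) and -0.14 (SE 0.32, edgeR adjusted p 0.775). The 7 transporters with too few counts to be tested were Slc30a2, Slc30a8, Slc30a10, Slc39a2, Slc39a4, Slc39a5 and Slc39a12. When wild-type 3, wild-type 4 or Neat1 null 3 was left out, the edgeR adjusted p of all 3 transporters that passed was 0.0738 to 0.122, and when Neat1 null 1 and 3 were both left out it was 0.157 to 0.184. Slc39a7 also missed the threshold without wild-type library 2 (edgeR adjusted p 0.0620) or Neat1 null library 1 (0.0616) and Slc30a3 without Neat1 null library 4 (0.0530). With the length and GC correction the edgeR adjusted p was 0.0777 for Slc39a7 and 0.0783 for Slc39a8, at log2 fold changes of 0.93 and -1.04.

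**Figure D4:**
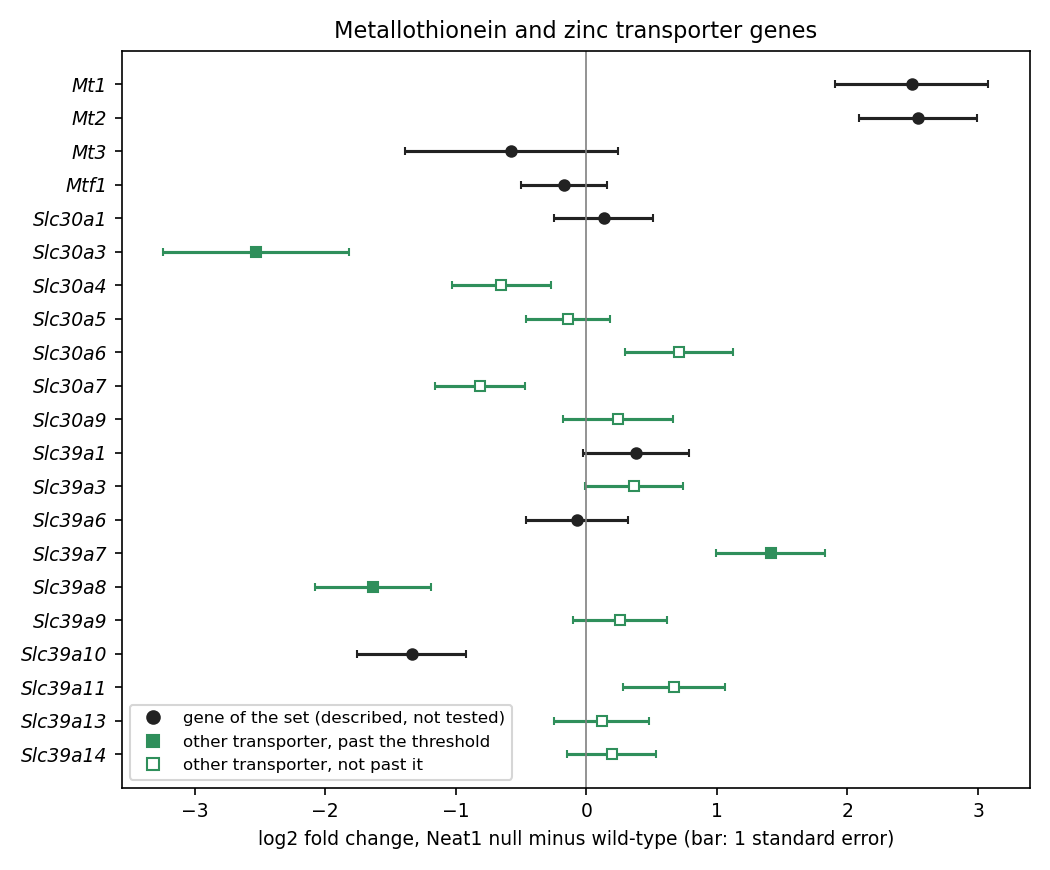
Log2 fold change with 1 SE of the metallothionein genes, Mtf1 and all tested zinc transporters; black points are the 8 genes described without a test, filled green squares are other transporters past the threshold and open squares those not past it. Mt1 and Mt2 (2.49 and 2.54) lie to the right of every transporter, of which Slc39a7 is the highest at 1.41.

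Of 5 other zinc genes (Mt4, Tmem163, Trpm7, Gpr39, Cbwd1), 4 were tested and 0 passed in edgeR's quasi-likelihood test (17.7% of all genes did). An unadjusted p under 0.05 was seen for 1 of the 4, beside 4789 of all 13316 genes. In DESeq2 1 passed, beside 3559 of 18181 genes fitted. Trpm7, a channel kinase that conducts zinc, had a log2 fold change of -0.76 (SE 0.40, edgeR adjusted p 0.186). Cbwd1, a gene of the family of zinc chaperones, had one of 0.09 (SE 0.36, edgeR adjusted p 0.873).

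Metallothioneins also bind copper, and 11 of 12 listed copper handling genes were tested, at a median log2 fold change of 0.25. Past the threshold 4 were higher and 1 was lower, beside 9.97% and 7.72% of all genes tested. Atox1, the copper chaperone of the secretory pathway, was at 55.3, 54.4, 35.5 and 37.0 CPM in wild-type and 350, 78.8, 262 and 109 CPM in Neat1 null libraries 1 to 4. It rose without overlap (log2 fold change 2.13, SE 0.47, edgeR adjusted p 0.0181). Sod1, the copper and zinc superoxide dismutase, rose from 256 ± 57.5 to 942 ± 614 CPM (SD, n = 4 each; log2 fold change 1.88, SE 0.48, edgeR adjusted p 0.0227). Commd1, which takes part in copper transport, rose from 24.2 ± 6.23 to 92.3 ± 54.3 CPM (log2 fold change 1.93, SE 0.43, edgeR adjusted p 0.0183). Atp7a, the copper pump that uses Atox1, went the other way, from 47.1 ± 7.33 to 18.6 ± 9.86 CPM (log2 fold change -1.34, SE 0.41, edgeR adjusted p 0.0360).

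Slc31a1, the copper importer, had a log2 fold change of -0.10 (SE 0.37, edgeR adjusted p 0.870), and Ccs, which hands copper to Sod1, one of 1.18 (SE 0.44, edgeR adjusted p 0.0712). Atox1 was in the shortest length class of genes, and Atp7a in a class with a median of -0.44. With the length and GC correction Atox1 was at 0.81 (edgeR adjusted p 0.0643) and Atp7a at -0.76 (0.0704). Sod1, at 2.10 (edgeR adjusted p 0.0347), and Commd1, at 2.46 (0.0344), stayed past the threshold. In that fit 3 copper genes passed as higher and 1 as lower, the latter a gene that had not passed before. Without wild-type 3, wild-type 4 or Neat1 null 3 all 5 copper genes were at an edgeR adjusted p of 0.0646 to 0.114, and without Neat1 null 1 and 3 together at 0.144 to 0.343. Atp7a also missed the threshold without wild-type 1 (edgeR adjusted p 0.0540), Neat1 null 1 (0.0694) or Neat1 null 4 (0.0542). Cox17, the copper chaperone of mitochondria and the remaining gene that passed as higher, missed it without wild-type 1 (0.0708), wild-type 2 (0.0548) or Neat1 null 1 (0.117). With the length and GC correction Cox17 passed, at 1.90 (edgeR adjusted p 0.0383).

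Iron handling genes, listed as a neighbouring metal system, were all 15 tested, with 0 higher and 1 lower in edgeR's test, beside 9.97% and 7.72% of all genes, and a median log2 fold change of -0.04. At an unadjusted p under 0.05 there were 6 of 15, beside 4789 of all 13316 genes. In DESeq2 2 passed, beside 3559 of 18181 genes fitted. The gene that fell was Slc40a1, the iron exporter ferroportin, from 9.04 ± 4.70 to 1.87 ± 0.609 CPM (SD, n = 4 each; log2 fold change -2.26, SE 0.56, edgeR adjusted p 0.0200), with wild-type library 1, at 2.12 CPM, inside the Neat1 null range. The ferritin genes Fth1 and Ftl1 had log2 fold changes of 1.15 (SE 0.50, edgeR adjusted p 0.111) and 1.08 (SE 0.48, edgeR adjusted p 0.122). Slc40a1 was at an edgeR adjusted p of 0.0678 to 0.0733 without wild-type 3, wild-type 4 or Neat1 null 3, and at 0.0842 with the length and GC correction.

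Glucocorticoids induce Mt1 and Mt2, and of 12 listed glucocorticoid response genes 11 were tested, with 0 higher and 1 lower in edgeR's test, beside 9.97% and 7.72% of all genes, and a median log2 fold change of 0.09. At an unadjusted p under 0.05 there was 1 of 11, beside 4789 of all 13316 genes. In DESeq2 1 passed, beside 3559 of 18181 genes fitted. Klf9, a transcription factor gene induced by glucocorticoids, fell from 35.5 ± 20.7 to 10.1 ± 5.61 CPM (SD, n = 4 each; log2 fold change -1.81, SE 0.50, edgeR adjusted p 0.0270), with overlapping groups. Sgk1 and Errfi1 had log2 fold changes of 0.52 (SE 0.43, edgeR adjusted p 0.405) and -0.03 (SE 0.39, edgeR adjusted p 0.957). Klf9 was at an edgeR adjusted p of 0.0849 to 0.105 without wild-type 3, wild-type 4 or Neat1 null 3, and at 0.0587 without Neat1 null 1.

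Genes around the metallothionein cluster on chromosome 8 were listed for comparison with Mt1 and Mt2. Of 8 listed neighbours 7 were tested, at a median log2 fold change of 0.37. Past the threshold 1 was higher and 1 was lower, beside 9.97% and 7.72% of all genes tested. Nudt21, a subunit of a cleavage factor that acts in polyadenylation, was at 29.1, 25.6, 22.0 and 20.2 CPM in wild-type and 87.0, 56.8, 91.4 and 48.2 CPM in Neat1 null libraries 1 to 4, and it rose without overlap (log2 fold change 1.55, SE 0.34, edgeR adjusted p 0.0181). Gnao1, a G protein alpha subunit gene, fell from 6.78 ± 4.93 to 0.980 ± 0.145 CPM (SD, n = 4 each; log2 fold change -2.78, SE 0.68, edgeR adjusted p 0.0200), with wild-type 1 inside the Neat1 null range. Nup93, a gene of the nuclear pore, had a log2 fold change of 0.67 (SE 0.39, edgeR adjusted p 0.219). Both neighbours that passed were at an edgeR adjusted p of 0.0646 to 0.0752 without wild-type 3, wild-type 4 or Neat1 null 3.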

How the data were processed

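Raw read counts per gene symbol, 1 table per library, were deposited by the authors and taken unchanged. CASAVA 1.8, STAR, DESeq2 and the mm10 build are named in the submitters' processing notes; how reads were counted, with which strand setting and annotation, is not given in the sources used here. The entries for reads outside genes (5.48% to 15.7% of counts) and ambiguous reads (1.09% to 1.76%) were kept out.

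Genes were kept with edgeR 4.0.16 filterByExpr (minimum count 10, R 4.3.3), scaled with TMM factors and tested with the robust quasi-likelihood F test, 2-sided, with genotype as the only term, Benjamini-Hochberg adjustment over all 13316 genes and a threshold of 0.05. The SE is the size of the log2 fold change divided by the square root of F. The steps were run on simulated counts with planted changes, to check that direction and size were recovered. Those counts held no length trend, sex difference or outlying library, so they are no check on these. DESeq2 1.42.0 was an alternative. Exon lengths came from GENCODE M21 and matched 98.4% of symbols. Depth was 19651035 to 38950207 counts per library.

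The 8 genes and the 6 lists were chosen with earlier results of these data known, the lists by family or pathway membership. From each list, up to 4 genes past the threshold with the smallest p and the 2 most abundant tested genes not past it were named, besides the 8 genes, Neat1 and, for Mt1 and Mt2, the 5 genes most like each. Cox17 was named after its values were seen. Another gene that the rule names is not reported here.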

Additional observations from a re-analysis of the deposited data

How the results depend on the processing

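The calls changed with the processing. Log2 fold changes of Mt1 (1.68 to 3.11), Mt2 (1.54 to 2.96) and Slc39a10 (-1.77 to -0.79) kept their sign in every alternative run. Mt3 (-1.70 to -0.07) kept its sign in the runs that held it, but its reported value, -0.57, is within its SE of 0.82. It was filtered out when at least 1 CPM in 4 libraries was asked for. The values of Mtf1, Slc30a1, Slc39a1 and Slc39a6 crossed 0, within -0.34 to 0.65. As the 8 genes were chosen from this comparison, a kept sign is a description and not a test. DESeq2 was fitted to 18181 genes, without the filterByExpr step, in place of 13316. It called 3559 genes in place of 2356, 1 other zinc gene in place of 0 and 2 iron genes in place of 1. At an adjusted p under 0.01, 7 genes passed, and 0 of the 8 genes described and 0 of each list. Without both Neat1 null libraries 1 and 3 there were also 7 genes, with 0 of the 8 and 0 of each list. With the length and GC correction, 1 of the 8 genes passed in place of 3 and 1 other zinc transporter in place of 3. Copper genes that passed were 4 in place of 5 and iron genes 0, with Mt2 at 1.57 and Mtf1 at 0.30. Leaving out single libraries gave 11 to 2965 genes in all, 0 to 3 of the 8, 0 to 3 other zinc transporters, 0 to 1 other zinc genes, 0 to 6 copper, 0 to 3 iron and 0 to 1 glucocorticoid response genes and 0 to 2 neighbours. Upper-quartile factors gave 1036 higher and 1428 lower genes in place of 1328 and 1028, with a median of -0.24 over all genes in place of -0.06. Mt2 and Mt1 were match 5 and 1 of each other with group means removed, and 1 and 2 with them kept. Mt3, at 4 to 67 reads in libraries of 1 genotype, is limited by the spread between libraries.

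The labels number the libraries of both genotypes, and as a check on pairing the deviations of same-numbered libraries from their group means had correlations of 0.3167, -0.2583, -0.01397 and 0.1075, with 2 of 8 libraries closest to their own number, so the numbers were not taken as pairs. With the replicate number as a block 2245 genes were called, with 1 other zinc gene and 3 iron genes. Other zinc transporters went from 3 to 2 and copper genes from 5 to 4. Slc39a7 and Cox17 missed the threshold in that run (edgeR adjusted p 0.0534 and 0.0782). Block and length and GC correction together gave 1 other zinc transporter, 1 other zinc gene, 3 copper genes, 2 iron genes and 1 neighbour, with Mt2 at 1.54 and Mtf1 at 0.34.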
